A study of Danio rerio with 6 samples.

Results

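The cytosolic ribosomal protein genes of the zebrafish were followed in whole embryos after deletion of the *dancr* promoter. The genes were chosen by name: rows named *rps* or *rpl* followed by a digit, together with *rpsa*, *rplp0*, *rplp1*, *rplp2* and *rplp2l*, and without the kinases, binding proteins and *rpl7*-like genes whose names begin the same way. This gave 80 of the 31953 genes counted, with 78 distinct names, since *rps27.2* and *rpl37* each name a pair of rows. Of the 80, 35 belonged by name to the small subunit and 45 to the large subunit, and they were spread over 24 chromosomes and 1 unplaced scaffold of GRCz10. RNA-seq was carried out on wild type AB embryos 30 h after fertilisation, in 3 libraries of mock control embryos and 3 libraries of *dancr* del F0 crispants. The crispants had been injected at the start of development with Cas9 and a pool of crRNAs that target the *dancr* promoter for deletion, and embryos of phenotype Classes I and II were taken. Mock control embryos received a mixture that lacked the *dancr* crRNAs. Embryos were pooled for RNA, and F0 crispants are mosaic, so that a crispant library can mix edited and unedited cells.

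Each cytosolic ribosome consists of a small subunit, which reads the mRNA, and a large subunit, which joins the amino acids. The ribosomal proteins are made in nearly equal numbers, and in vertebrates their mRNAs share a 5' terminal oligopyrimidine tract, through which growth signals set their translation together. Several ribosomal proteins also have roles outside the ribosome: in mammalian cells Rpl5 and Rpl11 bind Mdm2 when ribosome assembly fails, which stabilises p53, and human *RPS27L*, a close relative of *RPS27*, is itself induced by p53. Loss of many ribosomal proteins in zebrafish embryos gives small heads, anaemia and a p53 response. Many vertebrate ribosomal protein genes carry snoRNAs in their introns, as the *dancr* locus does.

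The counts on genes ran from 33841805 to 40515803 per library. Mock control replicate 3 (mock 3) stood apart from the other 5 libraries. TMM, the scaling that edgeR applies to a library total, gave it a factor of 0.75, while the other libraries had 0.99 to 1.14. The top 100 genes by count held 33.4% of mock 3 and 24.2% to 26.9% of the others. CPM, counts scaled to the TMM-adjusted total, is the unit used below for comparing libraries. Of 8 lists of 3 tissue markers each, 6 had their highest summed CPM in mock 3. Mock 3 was the highest library for 17 of the 24 markers, and for 34.1% of all genes tested. The summed level of the primitive red blood cell markers was 4891 CPM in mock 3 and 647 to 1460 CPM in the other libraries, and that of the skeletal muscle markers 20689 CPM against 7966 to 12921 CPM. The neuronal and notochord lists were highest in other libraries, and no marker was at 0 on average, the lowest having 0.442 CPM. The plan asked for the comparison with mock 3 and without it, and fold changes, shares of counts and paralogue ratios are given both ways.

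The 80 genes were among the most abundant messages of the embryo. Per length, their median level over the 6 libraries was 1007 FPKM (quartiles 428 and 1277), against 4.14 FPKM for all genes tested, and 56 of them were above 500 FPKM. The highest mean level was that of *rplp0*, the scaffold of the ribosomal stalk that recruits elongation factors, at 3480 FPKM. It was followed by *rps2* at 2652 FPKM, *rps20* at 2592 FPKM, *rpl6* at 2315 FPKM and *rpl3* at 2231 FPKM. In single libraries *rplp0* had 2608, 3010 and 7055 FPKM in mock 1, 2 and 3 and 2805, 3301 and 2103 FPKM in crispant 1, 2 and 3. *rplp0* was the highest of the 80 genes in each of the 6 libraries, whereas *rps2* and *rps20*, *rps20* and *rpl6*, and *rpl6* and *rpl3* each changed places in at least 1 library. Between 19 and 37 of the 100 most counted genes of a library were ribosomal protein genes, the most in mock 3.

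**Figure D1:**
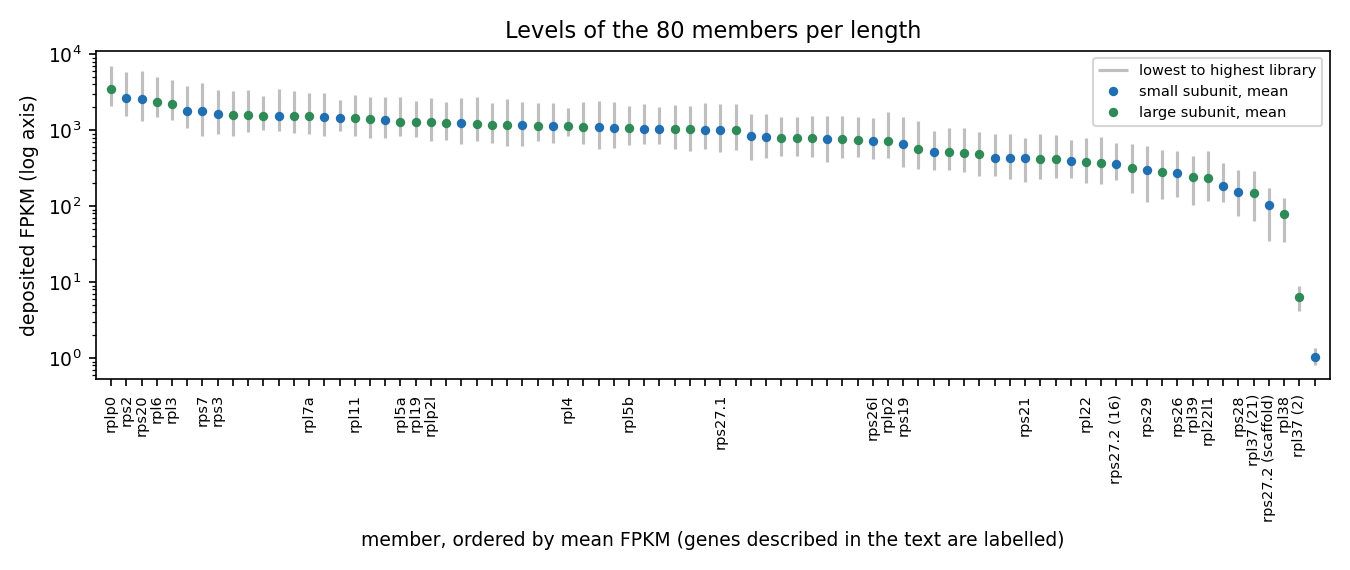
Deposited FPKM of the 80 genes on a log axis, ordered by the mean over the 6 libraries. Points are means coloured by subunit as named, grey lines run from the lowest to the highest library, and genes described in the text are labelled. The level falls gradually from 3480 FPKM for *rplp0* to 77.7 FPKM for *rpl38*, and 2 genes, *rpl37* on chromosome 2 (6.28 FPKM) among them, lie far below.

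At the lower end, 2 of the 80 genes were below 20 FPKM. Among them was the *rpl37* row on chromosome 2 (ENSDARG00000076360), with 6.28 FPKM, and here the name is in doubt. The reference table of gene names calls this identifier *COA1*, and its only domain in the deposited annotation is that of a cytochrome oxidase assembly factor of mitochondria. The *rpl37* row on chromosome 21 (ENSDARG00000034291) had 149 FPKM. Just above these were *rpl38* (77.7 FPKM) and the *rps27.2* row on the unplaced scaffold (104 FPKM).

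Across libraries the ribosomal protein genes moved together. Their median CPM was 551, 758 and 1695 in mock 1, 2 and 3 and 670, 776 and 452 in crispant 1, 2 and 3. Mock 3 was the highest library for 79 of the 80 genes, where 34.1% of all genes tested had their highest value in mock 3. Its level was a median 2.52 times the mean of mock 1 and mock 2, with a range over the genes of 1.35 to 3.28. Crispant 3 was the lowest library for 76 of the 80, and mock 1 for 3 (*rpl19*, *rplp2* and *rplp2l*). In the 5 libraries other than mock 3, the highest library was a median 1.73 times the lowest.

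**Figure D2:**
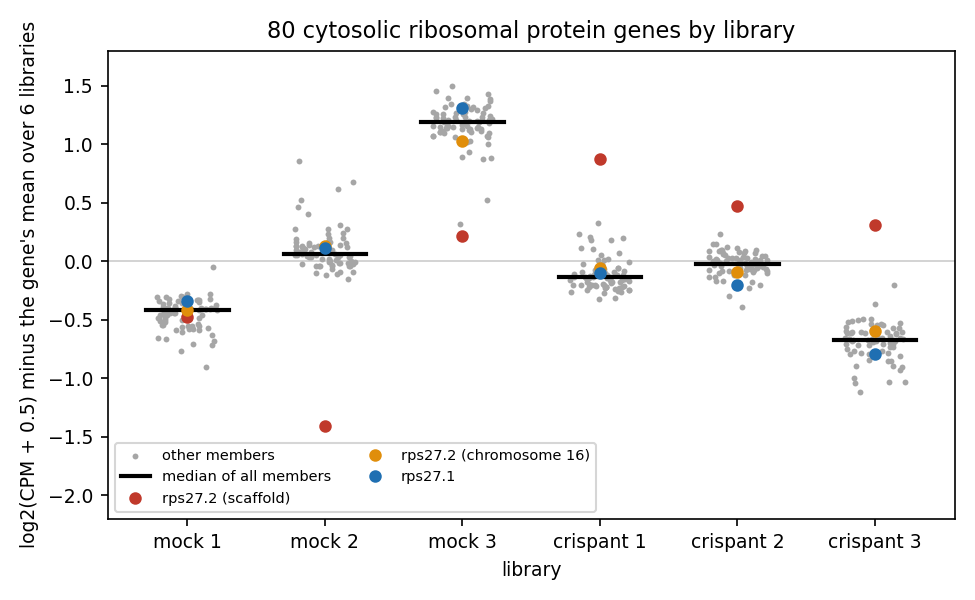
Level of each of the 80 genes in each library, as log2(CPM + 0.5) minus that gene's mean over the 6 libraries. Grey points are genes, black bars are medians over all 80 (-0.42, 0.06 and 1.19 in mock 1 to 3, -0.13, -0.02 and -0.67 in crispant 1 to 3), and coloured points are the *rps27* genes. The *rps27.2* row on the scaffold (red) is the lowest point in mock 2 and lies above the median in every crispant library.

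The share of all counts that fell on the 80 genes was also highest in mock 3 and lowest in crispant 3. It was 6.45%, 8.42% and 13.6% in mock 1, 2 and 3 and 7.59%, 7.93% and 5.88% in crispant 1, 2 and 3. The groups overlapped. The mean was 9.50% ± 3.71 (SD, n = 3) in mock control embryos and 7.14% ± 1.098 (SD, n = 3) in crispants. Without mock 3 the mock control mean was 7.43% ± 1.39 (SD, n = 2), and the difference between the groups went from -2.37 to -0.30 percentage points, less than the SD of either group. In RNA from whole embryos, fewer cells of a type and less RNA per cell cannot be told apart.

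**Figure D3:**
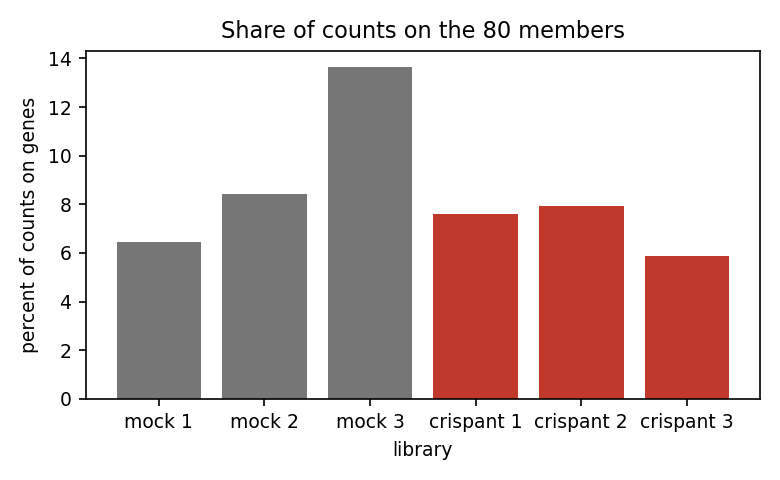
Percent of all counts on genes that fell on the 80 ribosomal protein genes, 1 bar per library, mock control in grey and crispant in red. Mock 3, at 13.6%, is above all other libraries, which lie between 5.88% and 8.42%.

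The first comparison asked whether deletion of the *dancr* promoter changed the ribosomal protein messages. Genes were called where the adjusted p did not exceed 0.05 and the log2 fold change reached 1 in either direction. With all 6 libraries edgeR called 0 of the 80 genes, where the share of all 20812 genes tested was 0%. All 80 had passed the filter on low counts. At an unadjusted p below 0.05, 1 gene was higher in crispants (background 3.01%) and 1 lower (background 2.47%), and DESeq2 and limma-voom also called 0 of the 80 (DESeq2 called 0.736% of all genes). The fitted log2 fold change was below 0 for 79 of the 80, against 54.5% of all genes, with a median of -0.69 against -0.04 for all genes. For 68 of the 80 it lay between -0.9 and -0.5. The median was -0.69 for the small subunit and -0.69 for the large subunit. The groups separated completely for 1 gene, higher in crispants (6.5% of all genes), and for 0 genes in the other direction (5.44% of all genes).

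Without mock 3 the fitted values lay near 0. The median log2 fold change of the 80 genes was then -0.08, against 0.01 for all genes, 68 of the 80 were below 0 (48.8% of all genes), and 76 were within 0.3 of 0. Leaving out mock 2 as well gave a median of 0.20, leaving out crispant 3 as well gave 0.10, and leaving out mock 1 as well gave -0.31, so that its sign rested on single libraries. edgeR called 0 of the 80 (0.0935% of the 21388 genes tested then), with 1 higher (5.93% of all genes) and 0 lower (5.28%) at an unadjusted p below 0.05. The groups did not overlap for 1 gene, higher in crispants (15.1% of all genes), and for 0 genes lower in crispants (14.3%). The adjusted p-values of the 80 genes ran from 0.137 to 0.998. Limma-voom called 0 and DESeq2 called 1 of the 80 (1.46% of all genes). That 1 gene was *rps27.2* on the scaffold, which was also the gene higher in crispants in each of these counts.

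**Figure D4:**
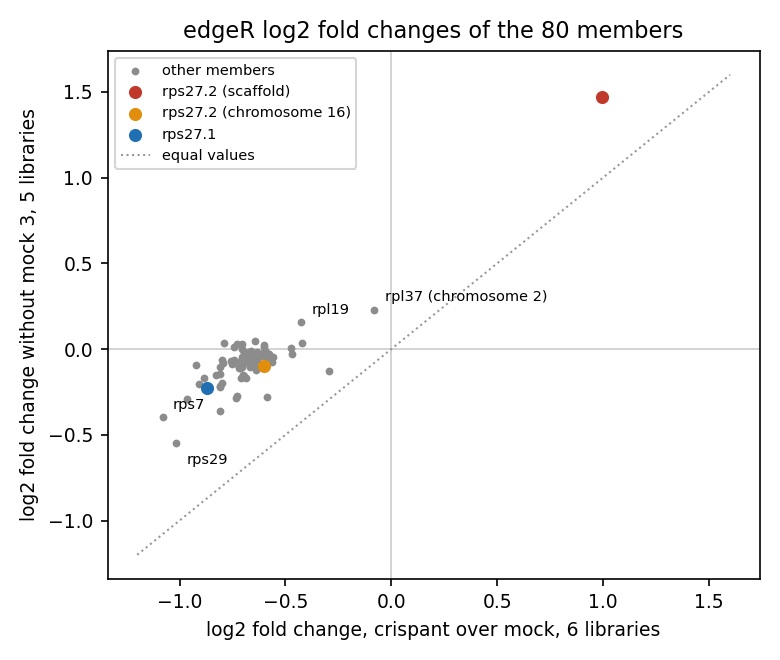
edgeR log2 fold change of each of the 80 genes, crispant over mock control, with all 6 libraries on the horizontal axis and without mock 3 on the vertical axis. The genes lie above the line of equal values, most of them near -0.69 horizontally and near -0.08 vertically, and the *rps27.2* row on the scaffold stands alone at 0.99 and 1.47.

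The *rps27* family was compared in full. Rps27 is a small zinc finger protein of the small subunit, and vertebrates carry a second, very similar protein, Rps27l. The table holds 3 rows of this family. *rps27.1* (ENSDARG00000023298) lies on chromosome 19 of GRCz10 from 8824335 to 8829646. Of the *rps27.2* rows, 1 lies on the minus strand of chromosome 16 from 23873584 to 23885452 (ENSDARG00000055475), and the other on the minus strand of scaffold KN150108.1 from 368 to 9008 (ENSDARG00000100513). The deposited descriptions liken both *rps27.2* rows to bovine *RPS27L*, and the table of gene names calls the scaffold row *rps27l*. How the counting treated reads that match more than 1 of these genes is not given in the sources used here, so their separate levels are uncertain to that extent.

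The *rps27.2* row on the scaffold had 40.0, 20.6 and 64.5 CPM in mock 1, 2 and 3 and 102.5, 77.5 and 69.2 CPM in crispant 1, 2 and 3. Every crispant library was above every mock control library, although crispant 3 was only just above mock 3. These values rested on 792 to 3779 counts per library. Mock control embryos had a mean of 41.7 ± 22 CPM (SD, n = 3), and the crispant mean of 83.1 ± 17.3 CPM (SD, n = 3) was 1.99 times as high. edgeR's quasi-likelihood test gave a log2 fold change of 0.99 (SE 0.38, unadjusted p = 0.0314, adjusted p = 0.823), so the row was not called. It was number 794 of all genes by p. Without mock 3 the mock control mean was 30.3 ± 13.7 CPM (SD, n = 2) and the ratio 2.74. The log2 fold change was then 1.47 (SE 0.29, edgeR unadjusted p = 6.21e-04, adjusted p = 0.137, number 97 by p), again not called. DESeq2 gave it an adjusted p of 0.504 at a log2 fold change of 1.00 with 6 libraries. Without mock 3, DESeq2 gave it an adjusted p of 3.02e-04 at a log2 fold change of 1.46. Mock 3 was the highest mock control library for this row, so leaving it out widened the difference and left 2 mock control libraries.

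Against the rest of the ribosomal protein genes the row stood apart in size. Its log2 fold change was above the median of the 78 genes other than *rps27.2* by 1.69 with 6 libraries and by 1.55 without mock 3. The next highest of the 80 genes, *rpl37* on chromosome 2, whose name is in doubt, had -0.08 and 0.23. The scaffold row was also the only one of the 80 whose highest library was a crispant (crispant 1) and whose lowest was mock 2. When each library was scaled to the summed counts of the other ribosomal protein genes, an alternative chosen after seeing the data, its log2 fold change was 1.57 (edgeR adjusted p = 0.946) with 6 libraries and 1.45 (edgeR adjusted p = 0.172) without mock 3. Likeness to it among the 80 genes was measured by Pearson's r of log2 CPM over the 6 libraries. The most alike were *rpl37* on chromosome 2, the row of doubtful name (r = 0.25), *rpl19* (r = 0.18) and *rpl11* (r = 0.12). All were weakly so, and the points share the scaling of their libraries.

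The other *rps27* rows behaved as the bulk of the ribosomal protein genes did. *rps27.2* on chromosome 16 had 277, 406 and 760 CPM in mock 1, 2 and 3 and 357, 349 and 245 CPM in crispant 1, 2 and 3. The groups overlapped, and its log2 fold change was -0.60 (SE 0.37, edgeR adjusted p = 0.999) with 6 libraries and -0.10 (SE 0.23, edgeR adjusted p = 0.911) without mock 3. *rps27.1* had 422, 578 and 1318 CPM in mock 1, 2 and 3 and 498, 463 and 307 CPM in crispant 1, 2 and 3. Its log2 fold change was -0.87 (SE 0.43, edgeR adjusted p = 0.978) and, without mock 3, -0.23 (SE 0.24, edgeR adjusted p = 0.765). Per length *rps27.1* was the most abundant of the family, with a mean of 1000.1 FPKM, against 355 FPKM for the chromosome 16 row and 104 FPKM for the scaffold row.

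**Figure D5:**
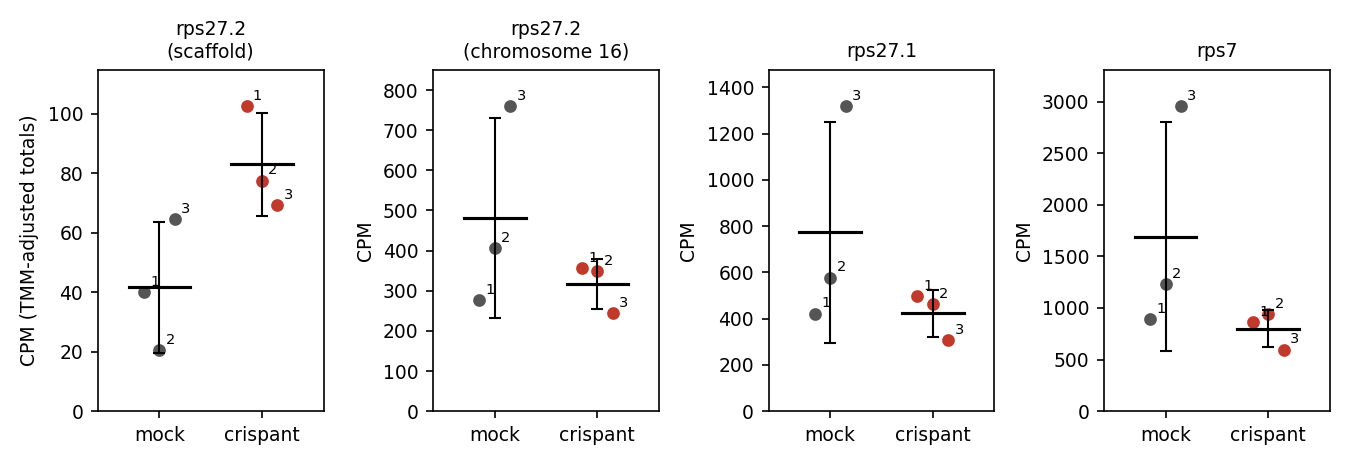
CPM of the 3 *rps27* rows and of *rps7* in mock control (grey) and crispant (red) libraries, numbered by replicate, with the mean and SD of each group (n = 3) as bars and whiskers. The scaffold row is higher in every crispant library than in every mock control library, while the other panels overlap and have their highest point in mock 3.

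A ratio of paralogues within a library does not depend on how libraries are scaled. For every 100 counts on *rps27.1*, the scaffold row of *rps27.2* had 9.47, 3.57 and 4.89 in mock 1, 2 and 3 and 20.6, 16.7 and 22.5 in crispant 1, 2 and 3. The ratio was higher in every crispant library, by 1.85 on the log2 scale (p = 0.1 by the two-sided exact permutation test, which cannot go lower with 3 libraries against 3). Without mock 3 the difference was 1.77. The chromosome 16 row had 65.7, 70.2 and 57.6 per 100 counts on *rps27.1* in mock 1, 2 and 3 and 71.6, 75.2 and 79.7 in crispant 1, 2 and 3, a difference of 0.23 on the log2 scale (p = 0.1 by the same exact permutation test). Without mock 3 that difference was 0.15. For the 5 other paralogue pairs among the 80 genes the difference lay between -0.15 and 0.24, and between -0.13 and 0.16 without mock 3. With 6 libraries the upper end was *rps8b* with *rps8a*, where *rps8b* had only 43 to 51 counts per library. The chromosome 16 row lay above the remaining pairs, *rpl22l1* with *rpl22*, *rpl5a* with *rpl5b*, *rps26* with *rps26l* and *rplp2* with *rplp2l*. The highest of these was *rpl5a* with *rpl5b* at 0.08. Without mock 3 that pair was the upper end at 0.16, and the chromosome 16 row was within the range.

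The largest falls on the log2 scale with 6 libraries were fitted for *rps7*, *rps29*, *rpl22l1* and *rplp2*, and none of them passed the test. *rps7*, which encodes a small subunit protein needed for rRNA processing, had 890, 1234 and 2954 CPM in mock 1, 2 and 3 and 866, 941 and 596 CPM in crispant 1, 2 and 3. Mock 1 lay between the crispants, so the groups overlapped. Its log2 fold change was -1.08 (SE 0.46, edgeR unadjusted p = 0.0447, adjusted p = 0.883) and, without mock 3, -0.40 (SE 0.24, edgeR adjusted p = 0.578). The other 3 had -1.01 (*rps29*), -0.97 (*rpl22l1*) and -0.92 (*rplp2*), and -0.55, -0.29 and -0.10 without mock 3. *rpl22l1* encodes a close relative of the large subunit protein Rpl22, and *rplp2* an acidic protein of the stalk.

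Relative to the other ribosomal protein genes, *rps7* separated the groups. It took 15.03, 15.5 and 16.6 counts for every 1000 on the others in mock 1, 2 and 3 and 12.4, 11.9 and 11.8 in crispant 1, 2 and 3. *rps20*, whose protein sits in the head of the small subunit, also did not overlap, with 15.3, 16.5 and 17.9 in mock 1, 2 and 3 and 14.96, 14.4 and 13.8 in crispant 1, 2 and 3. These were the 2 of the 80 genes that were lower in every crispant by this measure, where 0.341% of all genes were. In the other direction there were 3, where the share of all genes was 13.2%. They were the scaffold row of *rps27.2*, *rpl19* and *rpl37* on chromosome 2, whose name is in doubt. The ribosomal protein share of counts was highest in mock 3 and lowest in crispant 3. Division by these counts therefore tends to raise genes outside the set in crispants. The shares of all genes by this measure are thus no yardstick for the 80 genes. For a single gene, a two-sided exact permutation test of 3 libraries against 3 cannot go below p = 0.1. The genes named here were picked from the 80 by their separation, so it is no evidence of a change in them. *rpl19*, for a protein of the large subunit that bridges to the small one, took 13.5, 14.3 and 13.4 per 1000 in mock 1, 2 and 3 and 17.2, 15.7 and 15.99 in crispant 1, 2 and 3. Its own log2 fold change was -0.43 (SE 0.42, edgeR adjusted p = 0.999) with 6 libraries and 0.16 (SE 0.24, edgeR adjusted p = 0.852) without mock 3, so that its sign depended on mock 3.

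*rpl11*, *rpl5a* and *rpl5b*, whose products bind Mdm2 in mammals as several other ribosomal proteins do, had fold changes close to the median of the 80 genes. *rpl11* had 691, 816 and 1957 CPM in mock 1, 2 and 3 and 850, 881 and 553 CPM in crispant 1, 2 and 3, with a log2 fold change of -0.60 (SE 0.43) and, without mock 3, 0.03 (SE 0.23). The paralogues *rpl5a* and *rpl5b* had -0.65 and -0.67, and 0.05 and -0.11 without mock 3. *rps19*, whose human counterpart is the gene most often mutated in Diamond-Blackfan anaemia, had 463, 700 and 1678 CPM in mock 1, 2 and 3 and 600, 569 and 369 CPM in crispant 1, 2 and 3. Its log2 fold change was -0.89 (SE 0.47) and, without mock 3, -0.17 (SE 0.25). None of these 4 genes passed edgeR's test in either comparison, and in each of them mock 3 was the highest library.

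Genes for some of the smallest ribosomal proteins differed most between mock 1 and mock 2. In mock 2 the level of *rps29*, *rpl38*, *rpl37* on chromosome 21, *rpl39*, *rps28* and *rps21* was between 2.05 and 3.41 times that in mock 1, where the median of the 80 genes was 1.42. These 6 were the only ones of the 80 above 2. *rps29* had 46.9, 160 and 219 CPM in mock 1, 2 and 3 and 104, 67.1 and 40.2 CPM in crispant 1, 2 and 3. *rpl39* had 163, 374 and 562 CPM in mock 1, 2 and 3 and 282, 254 and 127 CPM in crispant 1, 2 and 3. In both genes crispant 1 was the highest crispant library, although the median ratio of crispant 1 to crispant 2 over the 80 genes was 0.917. The same 6 genes had ratios of 1.09 to 1.54. What these libraries have in common at these genes was not tested. Without mock 3 the fitted value of *rps29* (-0.55, SE 0.48) rested on mock 2, and was 0.60 when mock 2 was left out too.

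The annotation held snoRNAs inside 24 of the 80 genes on the same strand, 60 in all. This was 30% of the ribosomal protein genes, against 0.275% of the 25465 protein coding genes, and 23 of the 70 protein coding genes with such a snoRNA were ribosomal protein genes. *rpl4* held 7, *rplp0* 5, and *rpl7a*, *rps3* and *rps7* 4 each. The median log2 fold change was -0.68 for the 24 genes with a snoRNA and -0.70 for the 56 without, and -0.07 and -0.08 when mock 3 was left out. Genes with and without a snoRNA were thus centred at nearly the same fold change.

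Gene lists from the same pathways were placed beside the 80 genes. Of the 71 mitochondrial ribosomal protein genes, which encode the ribosome of another compartment, 70 had their highest level in mock 3, with a median log2 fold change of -0.29 with 6 libraries and 0.18 without mock 3. Translation factors and other genes taken to have 5' terminal oligopyrimidine messages were listed by name, and their sequences were not examined. These 39 genes had a median of -0.26 and, without mock 3, -0.02, and 29 were highest in mock 3. Among them *faua*, whose product is a ubiquitin-like protein fused to the ribosomal protein Rps30, had -1.15 (SE 0.48, edgeR adjusted p = 0.868) and, without mock 3, -0.38. This gene does not carry a ribosomal protein name, and like most of the ribosomal protein genes it was highest in mock 3.

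Ribosome assembly factors help to build the subunits and do not stay in them, and their list also held RNA polymerase I genes. Its 62 tested genes had a median log2 fold change of 0.06 with 6 libraries and 0.23 without mock 3. Mock 3 was the highest library for 32 of them. The smallest p without mock 3 was that of *rrn3*, which brings RNA polymerase I to the rRNA genes. It had 21.2, 23.0 and 26.5 CPM in mock 1, 2 and 3 and 32.03, 37.0 and 31.5 CPM in crispant 1, 2 and 3. Every crispant library was above every mock control library in this gene, which was picked by its p. Its log2 fold change was 0.51 (SE 0.20, edgeR adjusted p = 0.851) with 6 libraries and 0.62 (SE 0.17, edgeR adjusted p = 0.238) without mock 3. Of the 62 genes, 3 were higher in every crispant with 6 libraries (6.5% of all genes) and 22 without mock 3 (15.1%). In the other direction there were 0 in either comparison (5.44% and 14.3% of all genes). The reason was not tested. In all 3 lists 0 genes were called in either comparison, where 0% of all genes were called with 6 libraries and 0.0935% without mock 3. At an unadjusted p below 0.05 with 6 libraries, 0 of the mitochondrial genes, 2 of the translation genes (both lower) and 1 of the assembly factors (higher) passed, beside 3.01% (higher) and 2.47% (lower) of all genes. Without mock 3 the numbers were 1 (higher), 0 and 6 (all higher), beside 5.93% (higher) and 5.28% (lower) of all genes.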

How the data were processed

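RNA-seq was from whole embryos, with 3 mock control and 3 crispant libraries, polyA selected and strand specific. The authors deposited raw counts per gene, from reads that HISAT2 had aligned to GRCz10/danRer10; how reads were counted, and the versions, are not given in the sources used here. The authors' FPKM are counts over gene length and over 1 total per library, as checked on 18215 genes. That total differed from the summed counts (29324895 against 38146940 in mock 3), and how it was scaled was not checked. The deposited columns of the authors' own comparison, group means, log2 fold changes and p-values, were not used. Of the columns that hold 1 library each, 0 went unused. Groups came from the sample labels. All 31953 rows were gene rows, and 26121 identifiers matched the table of gene names. The human cell samples were not analysed here.

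Counts were scaled by TMM and tested with edgeR 4.0.16 (glmQLFTest, filterByExpr with a minimum count of 10, R 4.3.3), with no covariate, and adjusted by the Benjamini-Hochberg method over all genes tested. The comparison without mock 3 was refitted with its own filter and factors. CPM use TMM-adjusted totals; the log2 CPM of the plot and the paralogue ratios have 0.5 added. Standard errors come from the fold change and its F statistic. Alternatives used DESeq2 1.42.0, limma-voom (limma 3.58.1), other scalings and filters, the replicate number as a block, and each library left out. The tests were checked on simulated data. The names in the text followed a rule of the *rps27* genes, extremes of FPKM and fold change, paralogues, Mdm2 binding and ribosomopathy genes, and the most similar patterns; genes listed for their mock 2 to mock 1 ratio, the counts relative to the other genes and the snoRNA hosts were chosen after their values were seen. The members and lists were chosen with earlier results of these data known. Total depth allowed at least 792 counts for the *rps27.2* scaffold row in each library. Some genes of the set are counted in its totals but are not reported here by name.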

Additional observations from a re-analysis of the deposited data

How the results depend on the processing

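The calls among the 80 genes stayed at 0 with 6 libraries under every alternative run. Of all genes, edgeR called 0 of 20812 in the main fit and 2 of 27011 without the filter, limma-voom 0 and DESeq2 0.736%. With so few calls over all genes, 0 of the 80 says little about these genes. Without mock 3, DESeq2 called 1, *rps27.2* on the scaffold (log2 fold change 1.46), and the other alternatives 0. With each library left out in turn, its log2 fold change ran from 0.67 to 1.47 with 6 libraries and from 1.07 to 2.02 without mock 3. The median of the 80 genes ran from -0.99 to -0.08, and from -0.31 to 0.20 without mock 3. The crispant minus mock difference in the log2 ratio of the *rps27.2* scaffold row to *rps27.1* ran from 1.54 to 2.24. The difference in share of counts ran from -3.89 to -0.30 percentage points. Between libraries of the same replicate number the correlations of deviations were 0.24, -0.09 and -0.18. With 3 libraries a group these cannot settle whether the replicate numbers pair the samples. With the replicate block edgeR called 0 of the 80, with a median of -0.52 and 1.13 for *rps27.2* (adjusted p = 0.999). Scaling to library totals alone moved the median of all genes from -0.04 to 0.13 and that of the 80 to -0.42, and turned *rpl37* on chromosome 2 to 0.13. Ignoring letter case gave 84 genes and a median of -0.69. Scaling to the other ribosomal protein genes, chosen after seeing the data, gave 0.042 for *rps27.2* on chromosome 16.

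Signs also turned for some single genes, none of them called, when single libraries were left out. With 6 libraries the log2 fold change then ran from -0.87 to 0.026 for *rpl11*, -0.72 to 0.16 for *rpl19*, -0.64 to 0.037 for *rpl4* and -0.93 to 0.046 for *rpl5a*, above 0 only without mock 3, and from -0.30 to 0.23 for *rpl37* on chromosome 2, above 0 without mock 3 and without crispant 3 (0.13). In the comparison without mock 3, it ran from -0.079 to 0.44 for *rpl19* and -0.0086 to 0.52 for *rpl37* on chromosome 2, below 0 only without mock 1, and from -0.097 to 0.20 for *rpl5a*, below 0 without mock 1 and without crispant 2 (-0.049), and -0.030 with the trend on gene length removed. It ran from -0.63 to 0.16 for *rpl22l1*, -0.88 to 0.47 for *rpl37* on chromosome 21, -0.44 to 0.020 for *rps27.1* and -1.18 to 0.60 for *rps29*, above 0 only without mock 2, and from -0.35 to 0.21 for *rps27.2* on chromosome 16, above 0 without mock 2 and without crispant 3 (0.055). The causes were not tested. With 3 libraries a group, p-values measure the spread of these libraries only.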

Other observations

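Some rows have ribosomal protein names in capitals and were kept out by the rule on letter case, among them *RPL29* and *RPL37A*. *RPL29* had 63.4, 202 and 236 CPM in mock 1, 2 and 3 and 142, 105 and 54.6 CPM in crispant 1, 2 and 3, and thus varied between mock 1 and mock 2 as *rps29* and *rpl38* did. *RPL37A* had a log2 fold change of -0.79 with 6 libraries and -0.18 without mock 3.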
